A study of Mus musculus with 36 samples.

Results

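The 10 genes described here belong to the glucocorticoid axis of the liver: the receptor gene Nr3c1, Hsd11b1 and Serpina6, which govern supply of the hormone, and the classical target genes Fkbp5, Tsc22d3, Sgk1, Zbtb16, Mt1, Mt2 and Gadd45b. They were taken by gene name from a count table of 54532 genes, and each name matched 1 row. Of the 10 genes, 9 passed the filter on low counts, as did 17994 genes in all. Livers came from 36 male mice, 2 to 3 months old, fed normal chow and kept in a light-dark cycle. Controls were THRB+/- heterozygotes (THRB WT in the labels, 18 mice) and knockouts were THRB-/- (THRB KO, 18 mice), on a C57Bl/6NCrl background. The knockout is systemic, so organs other than the liver lack functional thyroid hormone receptor beta as well, and the control mice carry 1 disrupted allele. Each genotype was sampled at 6 zeitgeber times (ZT, hours after lights on: ZT2, ZT6, ZT10, ZT14, ZT18 and ZT22), with 3 mice per genotype and time, named a, b and c. Neither hormone concentrations nor treatment with a glucocorticoid formed part of these data.

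Glucocorticoids reach the liver bound largely to corticosteroid-binding globulin, the secreted protein encoded by Serpina6. Inside hepatocytes, 11β-hydroxysteroid dehydrogenase type 1 (Hsd11b1) regenerates active corticosterone from its inert keto form, and the hormone binds the glucocorticoid receptor (Nr3c1), which is held ready by a heat shock protein complex. The liganded receptor enters the nucleus and binds palindromic response elements near its targets. In nocturnal rodents plasma corticosterone rises towards the onset of darkness, so that many hepatic targets follow a daily course.

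The hexamer AGAACA and its reverse complement, separated by 3 bases, form the perfect palindrome of such an element. This 15-base motif reads the same on both strands and was searched, written as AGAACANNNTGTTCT, in the 250 bases before annotated starts from RefSeq on GRCm38.p6. It was present in 3 of 32851 windows (0.00913%). Entries for 7 members were used, with 14 windows, and 1 window, before one of 6 annotated starts of Sgk1 (chr10:21993640-21993889, plus strand), held the motif, 174 bases upstream of that start. The windows of Sgk1 and of Fkbp5 (chr17:28486150-28486399, minus strand) are shown, the first because it carries the palindrome and the second because Fkbp5 had the largest daily change among the members. Capitals mark the palindrome.
Sgk1: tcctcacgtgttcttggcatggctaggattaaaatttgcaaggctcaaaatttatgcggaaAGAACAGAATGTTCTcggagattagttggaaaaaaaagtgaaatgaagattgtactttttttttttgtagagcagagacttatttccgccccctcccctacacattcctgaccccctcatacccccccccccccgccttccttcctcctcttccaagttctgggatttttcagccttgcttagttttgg
Fkbp5: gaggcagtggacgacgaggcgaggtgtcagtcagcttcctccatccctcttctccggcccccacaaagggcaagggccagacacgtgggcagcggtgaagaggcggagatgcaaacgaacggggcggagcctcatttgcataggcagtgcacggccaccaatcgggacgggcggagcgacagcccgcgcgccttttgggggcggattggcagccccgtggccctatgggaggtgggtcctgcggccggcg
The Fkbp5 window has no such palindrome, which says only that these letters are not in this stretch.

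Total counts ran from 29063273 to 39913574 in THRB WT and from 31008555 to 42530551 in THRB KO libraries. Counts of Thrb itself did not separate the genotypes, at 24.3 to 38.5 CPM (counts of a gene per 1000000 counts of its library) in THRB WT and 26.2 to 37.8 CPM in THRB KO livers. The knockout allele removes DNA binding by the receptor, and a count over the whole gene is no check of it. Hepatocyte markers summed to 64288 to 96699 CPM in the 36 libraries, against 132 to 449 CPM for 6 Kupffer cell markers and 89.0 to 248 CPM for 6 stellate cell markers, so the libraries were those of liver. Of 4 pancreatic acinar markers, 3 had a median of 0, and the fourth, Cela1, stood at 12.9 to 45.9 CPM. In whole liver, fewer cells of a type and less RNA per cell cannot be told apart.

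Per kb of gene length, Serpina6 (198 CPM per kb on average, range 77.3 to 405) and Hsd11b1 (148, range 104 to 221) were the most abundant members, and their ranges overlapped. Tsc22d3, which encodes the anti-inflammatory leucine zipper protein GILZ, followed at 25.7 CPM per kb (11.3 to 52.0), below each Hsd11b1 value. Nr3c1 came next at 8.20 CPM per kb (6.85 to 10.5), with no value as high as the lowest of Tsc22d3. Mt1 (7.86, range 2.33 to 19.7), Fkbp5 (4.87, 1.35 to 15.1), Sgk1 (4.41, 2.14 to 10.9), Zbtb16 (2.27) and Gadd45b (1.49 CPM per kb) had lower means, and each gene overlapped its neighbour. The highest values of Mt1, Fkbp5 and Sgk1 exceeded each Nr3c1 value. Those of Mt1 and Fkbp5 lay within the range of Tsc22d3.

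**Figure D1:**
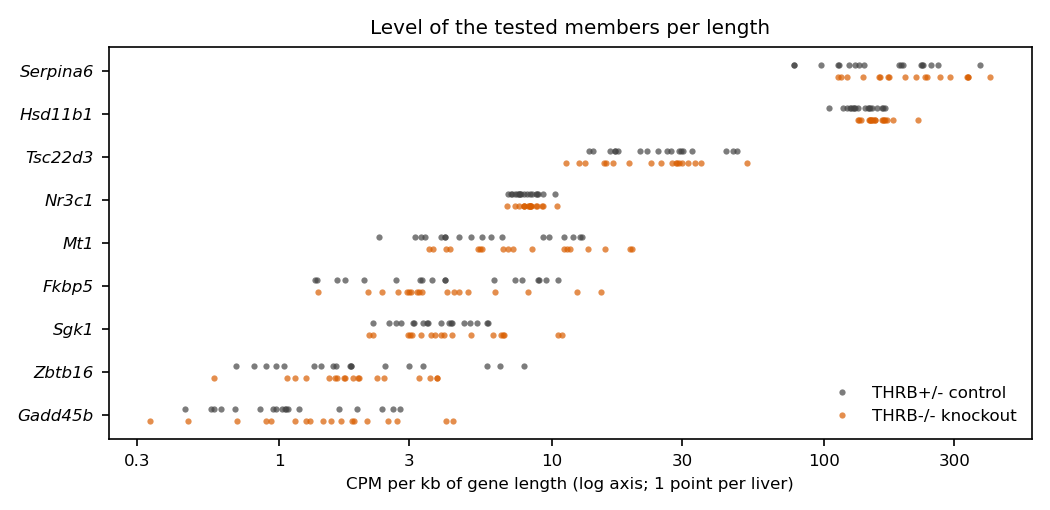
Level of the 9 tested members in each of 36 livers, in CPM per kb of gene length on a log axis, with THRB WT livers in grey and THRB KO livers in orange. Serpina6 and Hsd11b1 lie at or above 77.3 CPM per kb throughout, and Gadd45b and Zbtb16 lie lowest.

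Mt2 was an exception. Metallothioneins 1 and 2 are small cysteine-rich proteins that bind zinc and copper, and both genes are induced by glucocorticoids as well as by metals. The table assigned 2 counts to Mt2 (chr8:94172664-94173568) in all 36 libraries together, 1 in THRB WT ZT14 mouse b and 1 in THRB WT ZT22 mouse b. Its neighbour Mt1 (chr8:94179082-94180327), whose start lies 6418 bases away, received 12331. A count of 0 allows up to 3 counts, or 0.0705 to 0.103 CPM depending on the library, for counting error alone. Mt3 and Mt4 of the same cluster had 6 and 4 counts, and Gm45774, which overlaps Mt2 on the opposite strand, had 11. No transcript of another gene in GENCODE vM21 shared at least 95% identity over at least 80% of an Mt1 or Mt2 transcript. Whether the near absence of Mt2 counts came from counting, annotation or expression was not tested, and the value is what the table assigned rather than a level of the gene in liver. Mt2 was left out of the tests and of the counts below.

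The study asked how the liver differs without THRB over the day. With sampling time as a factor, no member passed the threshold for a genotype difference (edgeR quasi-likelihood test, Benjamini-Hochberg adjusted over 17994 genes). Over all tested genes, 0.95% were called. Of the 9 members, 4 had an unadjusted p under 0.05, as had 12.1% of all tested genes, and DESeq2 called 1. With a block per letter and time, Serpina6 and Hsd11b1 passed in edgeR, although the letters are not stated to pair mice. The members' median log2 fold change was 0.18, against -0.0011 over all tested genes, and 7 of 9 values were above 0.

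Serpina6 (chr12:103646630-103657212) came closest. Its level ran from 136 to 654 CPM in THRB WT livers (median 288, n = 18) and from 197 to 713 CPM in THRB KO livers (median 364, n = 18), and the ranges overlapped widely because the gene also varied with time. The knockout mean was the higher one at 6 of 6 times. The log2 fold change was 0.36 ± 0.09 (SE, 95% interval 0.17 to 0.55), with an adjusted p of 0.0521 by edgeR. At ZT14 the THRB WT livers held 405, 459 and 397 CPM and the THRB KO livers 510, 586 and 713 CPM. At ZT22 the values were 198, 172 and 136 CPM in THRB WT and 279, 347 and 214 CPM in THRB KO livers. The genotypes did not overlap at either of these times, whereas they did at ZT2, ZT6, ZT10 and ZT18. The share of all tested genes that separate in this way was not computed, so the separation is no sign of a difference by itself. The log2 difference was 0.52 ± 0.23 at ZT14 and 0.73 ± 0.23 (SE) at ZT22, with edgeR adjusted p of 0.928 and 0.678.

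The Serpina6 call turned on the setting. DESeq2 gave an adjusted p of 0.0129, edgeR without a filter 0.0252, and edgeR with filterByExpr 0.0497, at log2 fold changes of 0.36 to 0.37. EdgeR with a block per letter and time gave 0.0223, at a log2 fold change of 0.37. With robust estimation the adjusted p was 0.0648, and with the sampling times pooled 0.750. Without all mice lettered a, b or c it was 0.574, 0.0895 and 0.160. Leaving out any one of 12 libraries also brought it past the threshold, with edgeR adjusted p of 0.0147 to 0.0485: in THRB WT, ZT2 b and c, ZT6 b and c, ZT10 c and ZT18 a, and in THRB KO, ZT6 b and c, ZT10 b, ZT14 a, ZT18 b and ZT22 c. Without any one of the other 24 it stayed above, the highest being 0.0908.

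Hsd11b1 (chr1:193221634-193264075) encodes the enzyme that regenerates corticosterone. THRB WT livers ranged from 443 to 707 CPM (median 583) and THRB KO livers from 563 to 937 CPM (median 646). The knockout mean was higher at 6 of 6 times, with a log2 fold change of 0.18 ± 0.06 (SE, 95% interval 0.06 to 0.30) and an edgeR adjusted p of 0.139. With a block per letter and time the edgeR adjusted p was 0.0331, at a log2 fold change of 0.18. Without the mice lettered a it was 0.756, at a log2 fold change of 0.11. The 3 genes that overlap Hsd11b1, among them Lamb3 on the opposite strand, had 4284 counts together against 770057 of Hsd11b1.

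Sgk1, a kinase gene whose product regulates ion channels and transporters, was the other member with a higher knockout mean at 6 of 6 times. Such a pattern was seen in 3 of 9 members and in 3.95% of all tested genes. Sgk1 ran from 10.8 to 28.6 CPM in THRB WT livers (median 18.2) and from 10.5 to 53.2 CPM in THRB KO livers (median 19.4). The groups overlapped, and the highest values came from knockout mice ZT6 c (53.2 CPM) and ZT2 b (51.5 CPM). The log2 fold change was 0.34 ± 0.17 (SE), with an edgeR adjusted p of 0.431. It was 0.20 (adjusted p = 0.694) without knockout mouse ZT6 c, and 0.18 to 0.50 when the mice of 1 letter were left out. At ZT22 THRB WT livers held 23.4, 16.6 and 20.5 CPM and THRB KO livers 32.4, 29.7 and 32.7 CPM, a log2 difference of 0.65 ± 0.44 (edgeR adjusted p = 0.988).

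Mt1 ranged from 2.90 to 16.0 CPM in THRB WT (median 6.60) and from 4.42 to 24.6 CPM in THRB KO livers (median 8.77), with a log2 fold change of 0.53 ± 0.21 (SE, edgeR adjusted p = 0.282), and of 0.34 without knockout mouse ZT2 a. Gadd45b, a stress-induced gene that acts in growth arrest signalling, had 0.714 to 4.42 CPM in THRB WT and 0.535 to 6.88 CPM in THRB KO livers, with a log2 fold change of 0.49 ± 0.22 (adjusted p = 0.368). Omitting the mice lettered a brought this to 0.31. With 18 to 221 counts per library it was the member with the fewest counts among those tested. The remaining members had log2 fold changes near 0, at 0.05 ± 0.04 (SE) for Nr3c1, 0.01 ± 0.14 for Fkbp5, -0.05 ± 0.17 for Tsc22d3 and -0.14 ± 0.22 for Zbtb16. The 95% interval was -0.03 to 0.13 for Nr3c1 and -0.27 to 0.29 for Fkbp5, so a log2 change of the receptor gene as large as that of Serpina6 lay outside its interval.

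**Figure D2:**
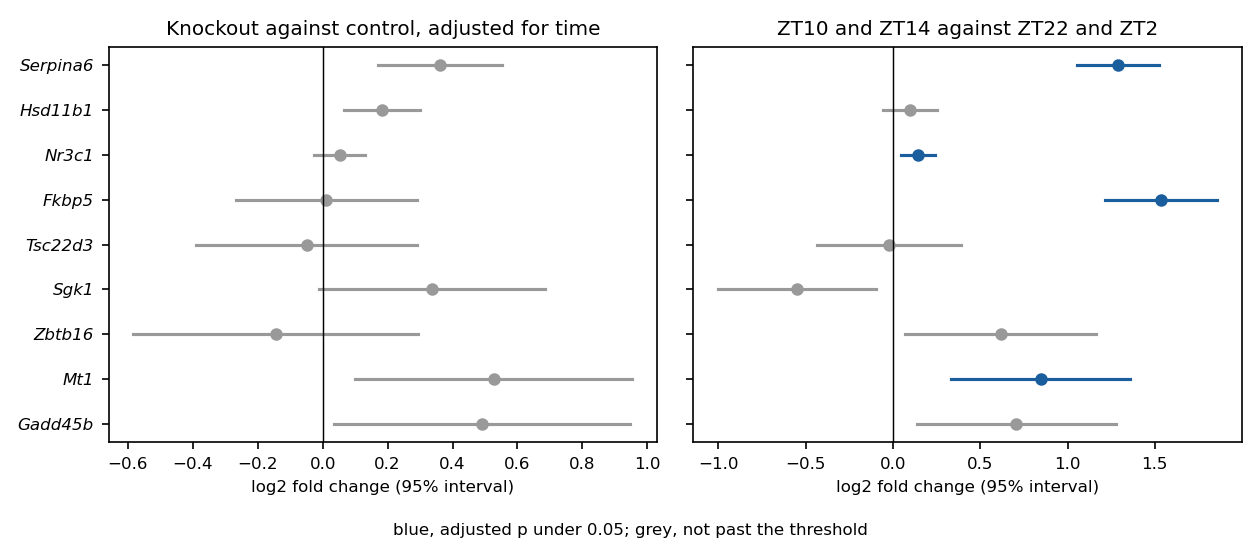
Log2 fold changes of the 9 tested members with 95% intervals, on the left for THRB KO against THRB WT adjusted for sampling time and on the right for ZT10 and ZT14 against ZT22 and ZT2. Blue marks an edgeR adjusted p under 0.05, which no member reached on the left, and Fkbp5, Serpina6, Mt1 and Nr3c1 reached on the right.

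Nor did the genotype difference of a member depend on time by the tests made. None of 9 members passed for the interaction of genotype with sampling time, in edgeR or in DESeq2. None had an unadjusted p under 0.05 in edgeR, against 2.69% of all tested genes. Over all genes 0.0% were called. At single sampling times 0 of 54 tests of members passed in edgeR, and 5 had an unadjusted p under 0.05. The share of all genes called was 0.0278% at ZT2, 0.0111% at ZT6, 0.0167% at ZT10, 0.0167% at ZT14, 0.0222% at ZT18 and 0.0222% at ZT22. Besides Serpina6 at ZT14 and ZT22, the 5 were Mt1 at ZT2, Fkbp5 at ZT10 and Gadd45b at ZT18. The share of all genes with an unadjusted p under 0.05 at single times is not given here. The 5 are thus no sign of a difference by themselves. Mt1 at ZT2 rested on 1 knockout mouse: THRB KO livers held 24.6, 5.10 and 4.56 CPM and THRB WT livers 4.25, 4.90 and 4.11 CPM. Fkbp5 at ZT10 was 73.3, 58.2 and 90.3 CPM in THRB WT and 28.8, 58.4 and 46.7 CPM in THRB KO livers, a log2 difference of -0.73 ± 0.31 (SE, edgeR adjusted p = 1).

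More members passed for time of day than for genotype. The contrast of ZT10 and ZT14 with ZT22 and ZT2 averaged both genotypes with equal weight and covered 12 livers on each side. It called 4 of 9 members, all of them higher at ZT10 and ZT14, while 31.6% of all tested genes were called and 15.9% were higher at those times. The members' median log2 difference was 0.62. This contrast treated the livers as independent. Deviations of same-lettered control and knockout mice of one time, however, correlated above 0.1 in 16 of 18 pairs. No block per letter and time was run for the contrast, so its SE and p may be too small.

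Fkbp5 (chr17:28399094-28517527), which encodes a co-chaperone that lowers the affinity of the receptor for its ligand, changed most. Over both genotypes (n = 6 per time) it ran from 13.1 to 31.1 CPM at ZT2 (median 20.6) and from 12.7 to 28.3 CPM at ZT6 (median 19.7). It reached 28.8 to 90.3 CPM at ZT10 (median 58.3) and 77.2 to 143 CPM at ZT14 (median 92.3). It then declined to 31.7 to 69.3 CPM at ZT18 (median 39.8) and 25.3 to 39.0 CPM at ZT22 (median 31.3). Each liver at ZT14 thus exceeded each liver at ZT2, ZT6, ZT18 and ZT22. The share of all tested genes that separate in this way was not computed. Between the contrasted sides the ranges overlapped, with 28.8 CPM as the lowest value at ZT10 and 39.0 CPM as the highest at ZT22. The log2 difference between the paired times was 1.54 ± 0.16 (SE, edgeR adjusted p = 6.0e-09). The 4 genes that overlap Fkbp5 had 2071 counts together against 57222, and the strands could not be told apart.

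Serpina6 rose in the same hours. Its levels were 136 to 244 CPM at ZT2 (median 199.7, n = 6), 246 to 412 at ZT6 (median 316), 336 to 654 at ZT10 (median 529.6), 397 to 713 at ZT14 (median 485), 228 to 420 at ZT18 (median 312) and 136 to 347 CPM at ZT22 (median 206). Livers at ZT2 lay below each liver at ZT6, ZT10 and ZT14, and here too the share of all tested genes was not computed. Between the contrasted sides the ranges overlapped, at 336 CPM as the lowest value at ZT10 and 347 CPM as the highest at ZT22. The log2 difference was 1.29 ± 0.12 (SE, edgeR adjusted p = 4.8e-10).

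Mt1 and Nr3c1 also passed. Mt1 had 8.19 to 24.2 CPM at ZT10 and ZT14 (median 13.0, n = 12) and 3.92 to 24.6 CPM at ZT22 and ZT2 (median 5.07, n = 12), where the knockout mice ZT2 a and ZT22 b stood out at 24.6 and 16.9 CPM. The log2 difference was 0.85 ± 0.25 (SE, edgeR adjusted p = 0.00961). Within THRB WT mice it was 1.37 ± 0.36 (adjusted p = 0.00685) and within THRB KO mice 0.32 ± 0.35 (adjusted p = 0.596). Nr3c1 moved little, from a median of 56.5 CPM (51.1 to 65.5) to 62.3 CPM (52.5 to 77.8), a log2 difference of 0.14 ± 0.05 (adjusted p = 0.0206), which was 0.0566 when no filter was used. Both calls rested on the set of mice: without the mice lettered c the Mt1 difference was 0.45 (adjusted p = 0.345), and without those lettered a or b Nr3c1 had adjusted p of 0.101 and 0.241.

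The other 5 members did not pass. Sgk1 had the lowest log2 difference, -0.55 ± 0.22 (SE, edgeR adjusted p = 0.0594), with 12.4 to 31.9 CPM at ZT10 and ZT14 (median 16.6) and 10.8 to 51.5 CPM at ZT22 and ZT2 (median 25.3). Gadd45b stood at 0.71 ± 0.28 (adjusted p = 0.0530) and Zbtb16 at 0.62 ± 0.27 (adjusted p = 0.0808). These 3 lay close to the threshold. Without a filter on low counts they had adjusted p of 0.0230, 0.0277 and 0.0374, and DESeq2 gave Gadd45b 0.0463. Leaving out single libraries brought Sgk1 past it in 6 cases (THRB WT ZT10 a, THRB KO ZT2 a and c, ZT6 a and c, ZT14 c; adjusted p 0.0188 to 0.0463). It did so for Zbtb16 in 3 cases (THRB WT ZT10 c and ZT14 b, THRB KO ZT22 b; 0.0283 to 0.0418). For Gadd45b there were 10 such libraries (THRB WT ZT6 b, ZT10 b, ZT14 a and ZT22 b, THRB KO ZT2 b, ZT6 a, b and c, ZT10 b and ZT14 b; 0.0218 to 0.0476). Other omissions moved values away from it, as Sgk1 stood at -0.33 (adjusted p = 0.228) without knockout mouse ZT2 b, and Zbtb16 at 0.35 (adjusted p = 0.302) without control mouse ZT14 c. The Gadd45b difference was 0.41 (adjusted p = 0.384) without the mice lettered a and 1.18 (adjusted p = 0.0104) without those lettered b. Hsd11b1 (0.10 ± 0.08) and Tsc22d3 (-0.02 ± 0.20) had the smallest values.

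**Figure D3:**
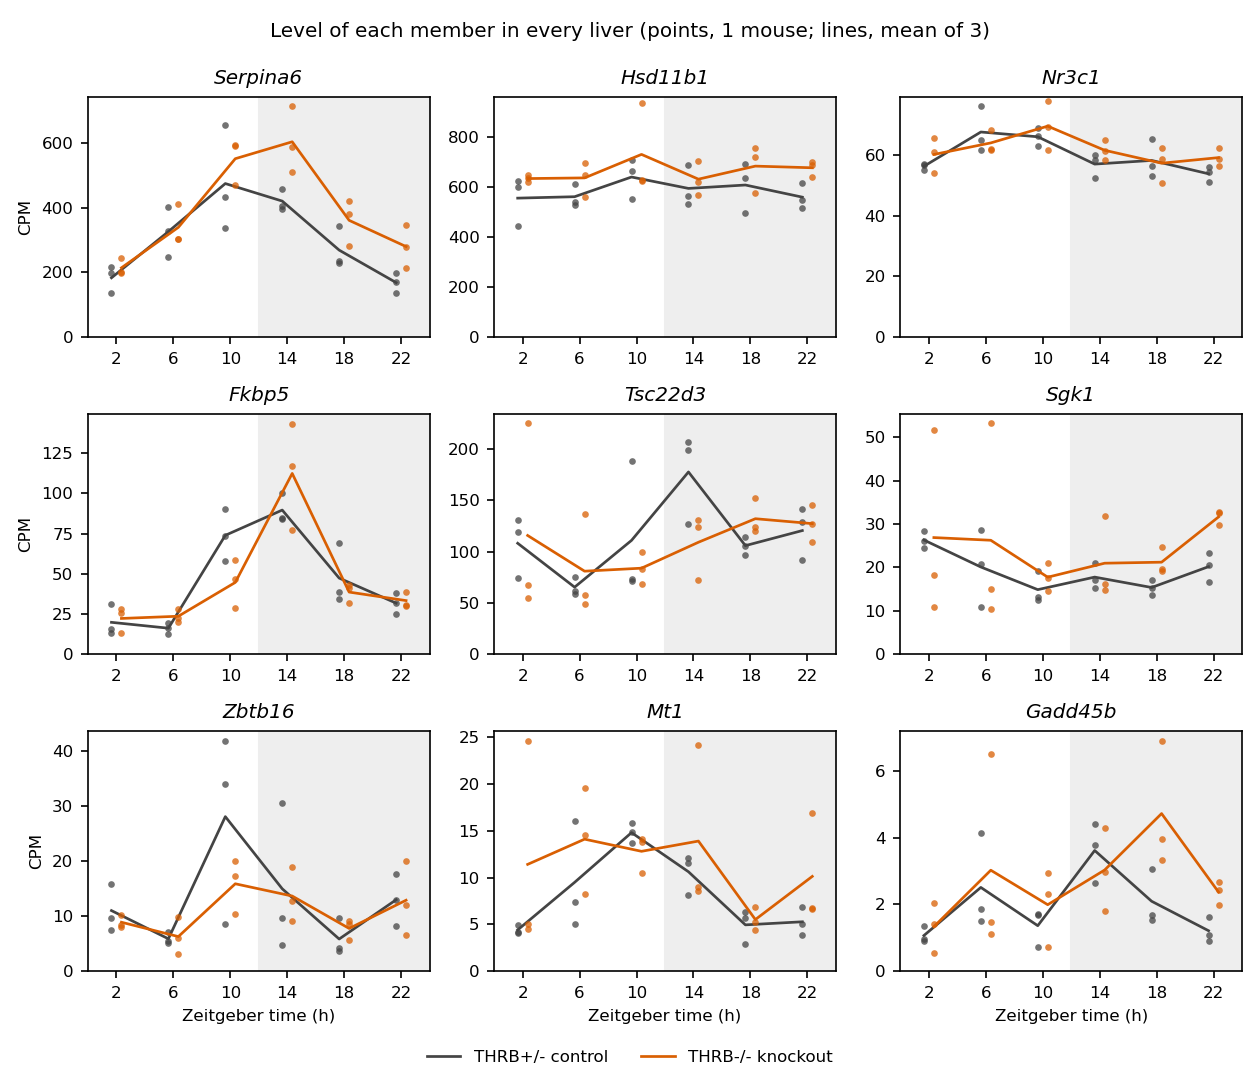
CPM of the 9 tested members against zeitgeber time in h, with 1 point per liver and lines through the means of 3 mice (grey, THRB WT; orange, THRB KO; shaded, dark phase). Fkbp5 and Serpina6 climb to ZT10 and ZT14 in both genotypes, whereas Tsc22d3 and Sgk1 show single knockout livers at 226 and 53.2 CPM.

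A 24 h curve was called for 4 members in THRB WT livers (35.1% of all tested genes) and for 2 in THRB KO livers (31.5% of all tested genes). Serpina6 was rhythmic in both, with a log2 amplitude of 0.78 (95% interval 0.567 to 0.999) and a peak at ZT11.4 ± 1.05 h in THRB WT, and an amplitude of 0.73 (0.54 to 0.91) and a peak at ZT12.6 ± 0.96 h in THRB KO livers (± marks the 95% interval, edgeR adjusted p = 1.4e-07 and 6.3e-07). The knockout peak came 1.22 h later, with an interval of -0.14 to 2.58 h. Fkbp5 had an amplitude of 1.21 (0.83 to 1.60) with a peak at ZT14.3 ± 1.21 h in THRB WT, and 0.97 (0.60 to 1.35) with a peak at ZT14.4 ± 1.48 h in THRB KO livers (adjusted p = 5.9e-06 and 2.6e-05). Its peaks differed by 0.13 h (-1.70 to 1.96 h).

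Mt1 passed in THRB WT livers (amplitude 0.86, peak ZT10.5 ± 1.54 h, edgeR adjusted p = 0.00405) and not in THRB KO livers (amplitude 0.51, adjusted p = 0.233). Nr3c1 likewise passed in THRB WT (amplitude 0.15, peak ZT8.48 ± 2.12 h, adjusted p = 0.0109) and had an adjusted p of 0.0630 in THRB KO livers. Its call in THRB WT livers was lost without the mice lettered a (0.145) or c (0.122). The knockout value fell to 0.0376 to 0.0480 when 1 of 4 libraries was left out (THRB WT ZT6 c or ZT18 b, THRB KO ZT10 c or ZT22 a). Passing in one genotype alone does not show a difference. The rhythm itself was tested for a difference between genotypes, and 0 of 9 members passed in edgeR or DESeq2. By edgeR, 0 had an unadjusted p under 0.05, against 3.07% of all tested genes, and 0.0% of all genes were called. The amplitude of Mt1 differed by -0.35, with an interval of -0.97 to 0.26.

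The call for Zbtb16 depended on how time was fitted. This gene encodes the zinc finger protein PLZF, and its THRB WT values were 33.9, 41.7 and 8.54 CPM at ZT10, 9.69, 4.73 and 30.5 CPM at ZT14 and 4.28, 9.62 and 3.66 CPM at ZT18. THRB KO livers had 20.1, 10.3 and 17.2 CPM at ZT10. Single livers of the same group thus differed several-fold. The curve had an edgeR adjusted p of 0.233 in THRB WT livers, while time as a factor with 6 levels gave 0.00977. For Gadd45b in THRB KO livers the adjusted p of 0.273 became 0.00484 without knockout mouse ZT6 c, whose 6.49 CPM compared with 1.11 and 1.48 CPM in its group.

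**Figure D4:**
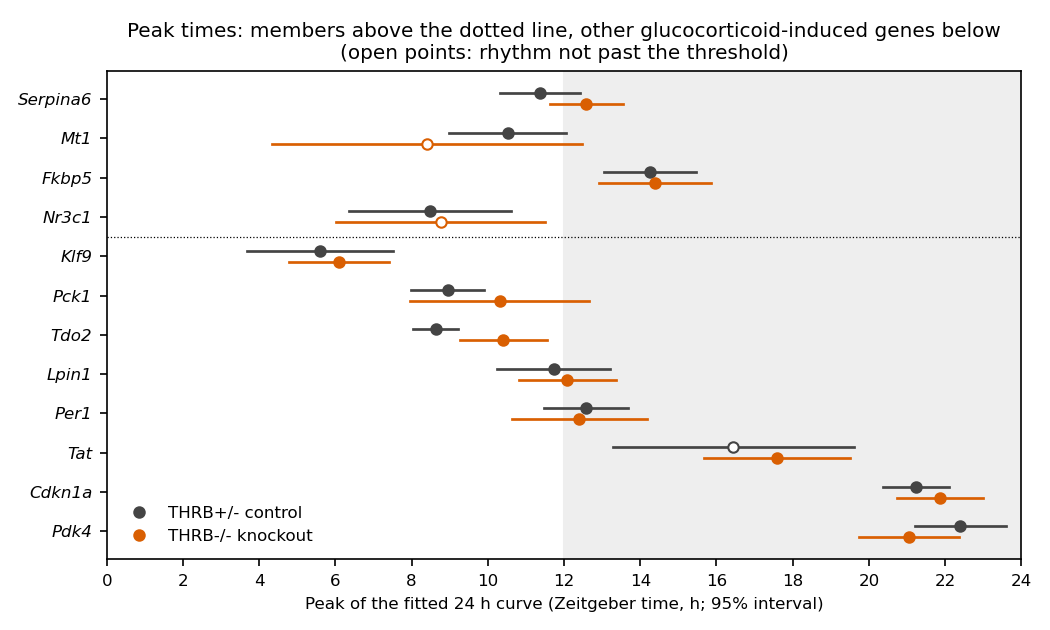
Peak of the fitted 24 h curve with its 95% interval, in zeitgeber hours, for the 4 members called in THRB WT livers and for 8 further glucocorticoid-induced genes (grey, THRB WT; orange, THRB KO; open points, rhythm not past the threshold; shaded, dark phase). Member peaks in THRB WT lie between ZT8.48 and ZT14.3, and those of Cdkn1a and Pdk4 fall late in the dark phase at ZT21.2 and ZT22.4.

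Tsc22d3 and Sgk1 varied widely between mice of one group. Tsc22d3 had 54.6, 226 and 67.3 CPM in the 3 knockout mice at ZT2, 48.9, 57.5 and 137 CPM at ZT6, and 188, 73.9 and 71.1 CPM in the control mice at ZT10. Sgk1 in the same knockout mice had 10.8, 51.5 and 18.2 CPM at ZT2 and 10.5, 15.0 and 53.2 CPM at ZT6. The mouse with the highest Tsc22d3 at each of these 2 times was the mouse with the highest Sgk1. Deviations from the mean of the same genotype and time were then compared for the 36 pairs among 9 members, by two-sided permutation within groups with 100000 resamples over 36 livers. This treated same-lettered control and knockout mice as independent. Their deviations over all genes correlated above 0.1 in 16 of 18 pairs, so the permutation p may be too small. After Benjamini-Hochberg adjustment 0 of 36 pairs passed, and 3 had an unadjusted p under 0.05 by r and 4 by rho. Tsc22d3 and Sgk1 had r = 0.68 (permutation p = 0.0141, adjusted 0.17) and rho = 0.54 (permutation p = 0.0139, adjusted 0.167). Nr3c1 and Gadd45b had r = -0.57 (permutation p = 0.0051, adjusted 0.17) and rho = -0.56 (p = 0.00742, adjusted 0.134). Tsc22d3 and Serpina6 had r = -0.47 (permutation p = 0.00974, adjusted 0.17) and rho = -0.52 (p = 0.00477, adjusted 0.134). Nr3c1 and Hsd11b1 had r = -0.40 (permutation p = 0.0683, adjusted 0.492) and rho = -0.42 (p = 0.0343, adjusted 0.309). Without the 2 mice farthest from the median in the first-named gene of each pair, the 4 values of r were 0.58, -0.58, -0.42 and -0.50. For Tsc22d3 these were knockout mouse ZT2 b and control mouse ZT10 a. Knockout mouse ZT6 c, with the highest Sgk1, was thus kept in the value of 0.58.

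The gene most like Tsc22d3 across the 36 livers, among 11917 genes with a mean of at least 50 counts, was Tat, encoding tyrosine aminotransferase, a classical glucocorticoid target in hepatocytes (r of log2 CPM = 0.81). The highest Tsc22d3 levels, 226, 207, 200.0 and 188 CPM, belonged to knockout mouse ZT2 b and control mice ZT14 c, ZT14 a and ZT10 a, and these livers had 2367, 2579, 2069 and 2714 CPM of Tat. Tcim (r = 0.79) and Gm17080 (0.75) came next. Knockout mouse ZT6 c had 137 CPM of Tsc22d3 with 1102 CPM of Tat and the highest Sgk1. Such values describe likeness over livers that share sampling times, genotype and normalization.

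**Figure D5:**
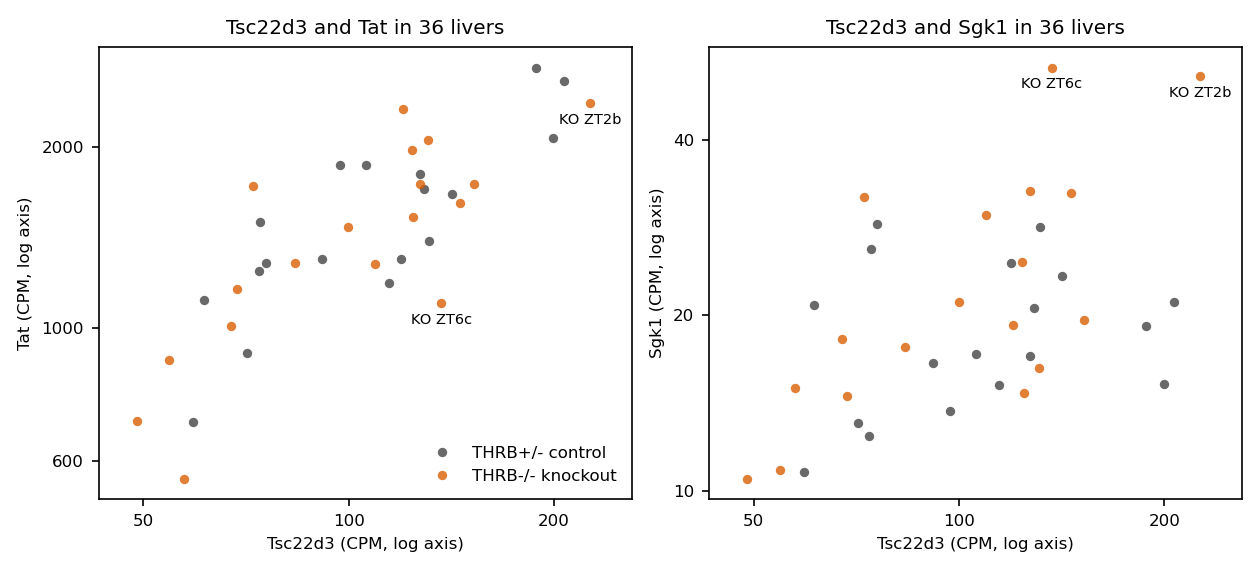
Tsc22d3 against Tat (left) and against Sgk1 (right) in the 36 livers, in CPM on log axes, with THRB WT in grey and THRB KO in orange. Tat follows Tsc22d3 across both genotypes (r = 0.81), while the 2 labelled knockout livers stand apart in Sgk1 at 51.5 and 53.2 CPM.

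For other members, the 3 most similar genes were Epop (r = 0.91), Gde1 (0.90) and Rhbdd2 (0.89) for Fkbp5. They were Sntb2 (0.78), Ubac1 (0.74) and Atxn7l3 (0.74) for Mt1, Trp53inp1 (0.70), Cnksr3 (0.64) and Pnpt1 (0.63) for Sgk1, and Hibadh (0.78), Rarres2 (0.78) and Gstt1 (0.75) for Hsd11b1. No member was among these.

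Other genes of the axis were read from lists. None of the 13 genes of the receptor complex, 7 of hormone supply and breakdown, 23 further induced genes, 12 acute phase genes and 9 genes of zinc and oxidative stress that could be tested passed for genotype in edgeR or DESeq2. Unadjusted p under 0.05 by edgeR occurred for 0, 2, 0, 0 and 1 of them. Over all tested genes, 0.95% were called for genotype and 12.1% had an unadjusted p under 0.05. The median log2 fold change of the further induced genes was 0.03.

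By time of day, 16 of the 23 further induced genes passed, 12 higher and 4 lower at ZT10 and ZT14, with a median log2 difference of 0.45, read against the 31.6% of all tested genes called. Lpin1, a phosphatidate phosphatase, rose by 2.28 ± 0.22 on the log2 scale (SE, edgeR adjusted p = 1.3e-09), Per1, a clock gene with a glucocorticoid response, by 2.82 ± 0.30 (adjusted p = 2.0e-08), and Pck1, of gluconeogenesis, by 1.17 ± 0.22 (adjusted p = 1.0e-04). Tdo2, which degrades tryptophan, rose by 0.45 ± 0.04. Cdkn1a, a cell cycle inhibitor, was lower at those times by -3.10 ± 0.28 and Pdk4, which restrains glucose oxidation, by -2.34 ± 0.26. Tat (0.19 ± 0.16) and Klf9 (-0.04 ± 0.13) did not pass. The 24 h peak of Klf9 was ZT5.59 in THRB WT and ZT6.09 in THRB KO livers, outside the hours contrasted.

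Of 13 receptor complex genes, 4 were higher at ZT10 and ZT14, among them the chaperones Dnaja1 (log2 difference 0.69 ± 0.09, SE, as for the values that follow), Dnajb1 (0.65 ± 0.10) and Hspa8 (0.93 ± 0.15), and 2 were lower, including the co-chaperone Fkbp4 (-0.21 ± 0.05). Of 7 supply and breakdown genes, the efflux pump gene Abcb1a (1.42 ± 0.24) and Akr1c6 (0.15 ± 0.06) were higher. H6pd, which supplies NADPH to the Hsd11b1 enzyme, was lower (-0.16 ± 0.06). Of 9 zinc and oxidative stress genes, 4 were higher and 2 lower, among them the transporters Slc39a14 (0.55 ± 0.09) and Slc30a10 (-1.52 ± 0.11) and the glutathione synthesis genes Gclm (0.20 ± 0.05) and Gclc (-0.58 ± 0.08). Of 12 acute phase genes, Steap4 was higher (0.47 ± 0.11) and Fgb (-0.40 ± 0.06) and Lbp (-0.27 ± 0.08) were lower. These counts stand against 31.6% of all tested genes called in either direction and 15.9% called higher at ZT10 and ZT14.

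Some markers of other cells passed in the same contrast. Over all tested genes, 31.6% were called in either direction and 15.9% were higher at ZT10 and ZT14. Stellate cell markers were lower at ZT10 and ZT14 for 4 of 6 genes, with a summed level of 125 to 211 CPM against 163 to 248 CPM at ZT22 and ZT2. Sinusoidal endothelial markers were lower for 2 of 5 genes (86.8 to 143 against 110 to 156 CPM) and cholangiocyte markers for 1 of 4 (5.38 to 10.8 against 10.2 to 18.3 CPM). Called or not, log2 differences were below 0 for 5 of 6 stellate, 5 of 5 endothelial and 3 of 4 cholangiocyte markers. All 5 endothelial markers had an unadjusted edgeR p under 0.05, as had 40.2% of all tested genes. Cela1, from the acinar list, was lower as well (log2 difference -0.46 ± 0.12, edgeR adjusted p = 0.00314). The other 3 acinar markers had a median of 0, so Cela1 alone gives no reading of acinar cells. Of 6 hepatocyte markers 1 was higher. In edgeR 0 of 6 Kupffer cell, 0 of 3 erythroid, 0 of 3 T and NK cell, 0 of 2 B cell and 0 of 2 tested neutrophil markers passed. Their part in the members' daily course was not tested. For genotype no marker passed in edgeR, where 0.95% of all tested genes were called. Unadjusted p under 0.05 occurred for 2 of 6 hepatocyte, 1 of 4 cholangiocyte, 1 of 3 T and NK cell and 1 of 3 erythroid markers and for Cela1. Of all tested genes, 12.1% had such a p. Log2 fold changes were below 0 for 6 of 6 Kupffer cell, 4 of 4 cholangiocyte and 3 of 3 erythroid markers, and for 3 of 6 stellate and 2 of 5 endothelial markers. A change of cell composition between genotypes was not tested.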

How the data were processed

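Poly(A) RNA of mouse liver was sequenced as paired-end, non-directional libraries. Per the labels and the study's methods, the authors mapped reads to GRCm38 with HISAT2 and counted them per gene with featureCounts (versions not given in the sources used here). The deposited table holds these counts without normalization. The 10 genes, the lists and the tests were chosen with earlier results of these data known. Groups came from the sample titles. Genes with at least 100 counts over 36 libraries were tested with edgeR 4.0.16 (limma 3.58.1, R 4.3.3; TMM, glmQLFit, glmQLFTest), Benjamini-Hochberg adjusted over 17994 genes at 0.05. CPM used TMM library sizes, and log2 CPM a prior count of 2. Amplitudes and peaks came from least squares fits of a 24 h curve to log2 CPM per genotype. Each p rests on separate mice. Depth per library had a median of 33540565 (THRB WT) and 34190848 counts (THRB KO). Gadd45b, with few counts, had the largest SE of the members for genotype (0.224) and time of day (0.279). Zbtb16 was close (0.216 and 0.268), and its amplitude difference was less precise (SE 0.42 against 0.37 for Gadd45b). Intervals cover the spread between mice. Libraries of one group differed beyond sampling noise (chi-square per gene 27.8 to 115 over 36 pairs). Named genes were all members, Per1, Tat, Pck1 and Klf9, up to 4 genes per list with the smallest adjusted p past the threshold, and the 3 most similar genes for 5 members. Alternatives were DESeq2 1.42.0, RLE size factors, no filter, filterByExpr, robust estimation, pooled times, a block per letter and time, and leaving out letters and single libraries. Transcripts were compared with BLAST. Of the planned 45 member pairs, 36 could be computed, since Mt2 had 2 counts. The fits were tested on simulated data.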

Additional observations from a re-analysis of the deposited data

How the results depend on the processing

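For genotype adjusted for time, 0 members were called, against 1 with DESeq2, 1 without a filter, 1 with filterByExpr and 2 with a replicate block (0 to 1 when a letter or a single library was left out); the calls were Serpina6 (adjusted p = 0.0223 under the block) and, under the block, also Hsd11b1 (log2 fold change 0.18, edgeR adjusted p = 0.0331). The letters a, b and c are not stated to pair mice: deviations of same-lettered mice correlated above 0.1 in 16 of 18 pairs (-0.073 to 0.397), and in 17 of 18 a mouse correlated best with its own letter. The block changed neither of the other counts it was run for, the interaction and the rhythm difference. The count for ZT10 and ZT14 against ZT22 and ZT2, 4 members, was 5 with DESeq2, 6 without a filter, 2 in knockout mice alone and 3 to 6 when letters or libraries were left out; rhythms gave 3 to 4 in THRB WT and 2 to 3 in THRB KO. Small values changed sign: Fkbp5 for genotype was -0.021 with times pooled and -0.030 to 0.076 on leaving out mice, Tsc22d3 -0.35 to 0.19, and for time of day Tsc22d3 0.30 in control mice alone and -0.20 to 0.21, and Hsd11b1 -0.016 to 0.163. The causes were not tested. Interaction, single-time and rhythm-difference counts stayed at 0 under the settings run. DESeq2 was not run at single times.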
